A study of Mus musculus with 36 samples.

Results

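The variable segments of the T cell receptor alpha chain were followed across CD4+ T cells of HP1a and HP1g knockout (KO) and wild-type (WT) mice. Members were all genes whose symbol begins with Trav in the merged gene-count table. There were 130 of them among 56748 genes, 110 annotated as functional variable genes and 20 as pseudogenes. All lie on the plus strand of mouse chromosome 14, within chr14:52665385-54215135 of GRCm39, upstream of the constant gene Trac at chr14:54457978-54461663. Of the 130, 120 reached 3 counts in at least 1 library in use, and the 10 that did not were all pseudogenes.

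In the thymus, an alpha chain rearrangement joins 1 Trav segment to 1 joining (Traj) segment, and the product is spliced to Trac. The Trav segment encodes the first and second complementarity-determining regions of the alpha chain and the germline start of the last of the 3, so the segment in use is part of what the receptor recognizes. All progeny of a T cell keep its alpha chain rearrangement or rearrangements. A pool of many clones thus carries many segments, whereas outgrowth of a few clones raises the share of the segments they carry. In mice the central part of the locus is duplicated, and many segments exist as a classical copy and as copies marked d or n in their symbol.

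The study asked how loss of HP1a or HP1g, chromatin proteins that bind methylated histone H3 and are encoded by Cbx5 and Cbx3, alters the response of conventional CD4+ T cells to suppression by regulatory T cells, in a mouse model in which the transferred cells reject allogeneic bone marrow. The 36 RNA libraries form 12 groups of 3, from 2 mouse lines, 2 genotypes and 3 conditions, all from CD4+ T cells of the spleen. In the HP1a line the KO is a germline deletion made with CMV-cre and the WT are littermates. In the HP1g line the floxed gene is deleted by Cd4-cre and the WT controls carry the floxed gene without Cre, so both HP1g groups are floxed. Both lines are on a mixed background of which C57BL/6 is a part, whereas the reference sequences are those of C57BL/6J; how alleles of the other strain bear on the assignment of counts to segments and copies was not examined. Naive cells were taken from young adult mice by negative selection, with no selection on the receptor. Grafted cells were recovered 3 weeks after transfer into lethally irradiated C57BL/6 hosts rebuilt with marrow from C57BL/6 and B6D2F1 donors. These are conventional CD4+ T cells (Tconv), transferred alone or together with regulatory T cells (TconvTreg), the latter expanded in culture from Foxp3-Thy1.1 reporter mice and gated out by Thy1.1. Grafted cells were also sorted for Vβ6, the beta segment encoded by Trbv19, which recognizes the Mtv-7 superantigen of the B6D2F1 cells. Grafting and the Vβ6 sort therefore cannot be told apart when grafted cells are compared with naive cells. Libraries were made from 10 pg of RNA. The third TconvTreg library of the HP1g KO, which the study excluded for quality, was left out, and 35 libraries were used. Nothing in the labels says that replicates came from separate mice, so p-values measure only the spread between these libraries.

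The following segments are printed because each led the Trav signal of at least 1 grafted library, except Trav11, the segment of invariant natural killer T cells. Each is the exon that encodes the variable domain, or its last 300 bases where the exon is longer, read from the GENCODE M39 annotation of GRCm39. Capitals run from the codon of the conserved cysteine to the exon end, the germline start of the last complementarity-determining region (CDR3).
Trav19, chr14:54082985-54083284, + strand: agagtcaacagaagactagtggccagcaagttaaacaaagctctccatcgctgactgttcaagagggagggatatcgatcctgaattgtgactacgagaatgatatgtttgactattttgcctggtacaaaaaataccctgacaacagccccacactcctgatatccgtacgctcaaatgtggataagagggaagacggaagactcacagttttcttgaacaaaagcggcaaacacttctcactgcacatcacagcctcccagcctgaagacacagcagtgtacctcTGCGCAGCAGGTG
Trav14d-3-dv8, chr14:53316203-53316502, + strand: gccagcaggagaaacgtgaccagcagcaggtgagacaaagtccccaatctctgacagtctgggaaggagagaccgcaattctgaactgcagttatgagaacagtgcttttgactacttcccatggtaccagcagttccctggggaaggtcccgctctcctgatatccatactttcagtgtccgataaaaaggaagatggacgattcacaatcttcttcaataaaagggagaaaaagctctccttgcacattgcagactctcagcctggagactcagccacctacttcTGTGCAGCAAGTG
Trav4-4-dv10, chr14:53921356-53921634, + strand: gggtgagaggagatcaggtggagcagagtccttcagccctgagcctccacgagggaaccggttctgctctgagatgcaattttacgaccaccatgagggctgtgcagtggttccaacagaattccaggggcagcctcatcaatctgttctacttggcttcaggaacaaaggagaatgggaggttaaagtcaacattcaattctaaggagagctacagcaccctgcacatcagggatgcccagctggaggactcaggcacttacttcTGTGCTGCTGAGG
Trav7-2, chr14:53628313-53628599, + strand: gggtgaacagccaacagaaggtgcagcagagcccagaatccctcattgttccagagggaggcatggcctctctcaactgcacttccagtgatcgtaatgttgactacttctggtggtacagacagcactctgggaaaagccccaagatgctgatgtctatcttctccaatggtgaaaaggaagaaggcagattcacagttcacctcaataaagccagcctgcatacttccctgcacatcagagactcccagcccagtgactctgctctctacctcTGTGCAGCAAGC
Trav7-3, chr14:53681009-53681296, + strand: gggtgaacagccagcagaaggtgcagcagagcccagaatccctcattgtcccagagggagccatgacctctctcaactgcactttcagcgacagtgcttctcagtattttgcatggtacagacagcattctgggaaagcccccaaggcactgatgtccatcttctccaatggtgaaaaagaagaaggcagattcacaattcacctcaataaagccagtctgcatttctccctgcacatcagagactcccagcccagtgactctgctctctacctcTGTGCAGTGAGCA
Trav11, chr14:53757026-53757316, + strand: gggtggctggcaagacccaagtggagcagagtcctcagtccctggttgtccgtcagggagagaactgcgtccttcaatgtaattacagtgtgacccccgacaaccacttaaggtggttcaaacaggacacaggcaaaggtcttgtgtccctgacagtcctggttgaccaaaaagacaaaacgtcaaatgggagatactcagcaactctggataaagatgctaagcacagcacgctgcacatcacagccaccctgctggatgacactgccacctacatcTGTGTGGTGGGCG
Of these, Trav7-2 has no base that differs from its copy Trav7d-2, and Trav11 none that differs from Trav11d, over the spliced length they share.

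The 3 copies of Trav7-4 are printed because they show how little sequence separates copies in the duplicated part of the locus. In these lines capitals mark the 6 positions at which the variable exons of the 3 copies are not all the same.
Trav7-4, chr14:53698904-53699195, + strand: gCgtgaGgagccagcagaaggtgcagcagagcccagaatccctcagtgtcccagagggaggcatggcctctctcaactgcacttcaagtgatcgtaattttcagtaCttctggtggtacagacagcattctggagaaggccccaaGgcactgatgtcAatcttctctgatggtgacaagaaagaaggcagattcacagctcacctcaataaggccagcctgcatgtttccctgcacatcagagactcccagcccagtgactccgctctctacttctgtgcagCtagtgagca
Trav7d-4, chr14:53007558-53007849, + strand: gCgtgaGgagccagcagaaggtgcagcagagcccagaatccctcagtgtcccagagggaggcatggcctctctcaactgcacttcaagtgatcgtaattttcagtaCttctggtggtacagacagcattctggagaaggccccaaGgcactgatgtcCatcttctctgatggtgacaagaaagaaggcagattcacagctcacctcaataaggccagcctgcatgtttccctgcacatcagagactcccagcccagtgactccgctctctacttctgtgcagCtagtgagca
Trav7n-4, chr14:53329041-53329332, + strand: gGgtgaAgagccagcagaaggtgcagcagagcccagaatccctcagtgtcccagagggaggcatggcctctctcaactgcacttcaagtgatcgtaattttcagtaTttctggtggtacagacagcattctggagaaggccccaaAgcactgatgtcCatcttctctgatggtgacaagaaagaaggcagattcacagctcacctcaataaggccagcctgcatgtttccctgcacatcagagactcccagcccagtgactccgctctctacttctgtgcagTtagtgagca
A fragment that lies within this exon and covers none of the capitals cannot be placed on 1 of these copies. The 130 segments form 58 copy groups, in which segments that share a name apart from d, n and the dv ending (segments also used by the delta chain) are joined. Of these groups, 40 hold 2 or 3 segments, 112 segments in all. Copies within a group were 88.1% to 100% identical in spliced sequence, with a median of 97.65%, and 46 segments had no differing base from a copy. A further 16 segments differed from their nearest copy by 1 to 3 bases. Segment levels are therefore uncertain between copies, and comparisons of single segments below are given for segments and for copy groups. Tests of diversity and of the leading share are given for segments, and for Tconv against naive cells also for families. A copy group is named by its classical copy, so that Trav14-3 as a copy group holds Trav14-3, Trav14d-3-dv8 and Trav14n-3.

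The libraries in use held 37029500 to 63042200 estimated counts, of which 9315 to 32010 fell on Trav segments. Cbx5 was at 9.20 to 19.7 CPM, counts scaled to the library total, in the 9 HP1a KO libraries and at 18.5 to 61.8 in the 9 WT libraries of that line, which overlap only across conditions. Cbx3 was at 60.5 to 80.8 CPM in the 8 HP1g KO libraries and at 79.0 to 199 in the 9 WT libraries of that line. All 8 markers of CD4+ T cells were detected in every library. Trbv19 held 7.18% to 9.69% of the Trbv counts in naive libraries and 47.1% to 91.7% in grafted libraries. Summed erythroid markers reached 102 CPM in naive and 4198 CPM in grafted libraries, and summed myeloid markers 13.0 and 491 CPM. No 2 libraries of a group held the same values.

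Naive CD4+ T cells used a broad and nearly fixed set of Trav segments. Shares are given per kilobase of exon, as percent of the summed Trav signal of a library. The leading segment was Trav7d-2 in all 12 naive libraries, at 4.49% to 5.99%. It was followed by Trav7-4 at 3.86% ± 0.30, Trav14-2 at 3.70% ± 0.19 and Trav14n-3 at 3.54% ± 0.30 (mean ± SD, n = 12). Trav14d-3-dv8 at 3.25% ± 0.33 and Trav14-1 at 2.59% ± 0.22 came next. Neighbors in this order after the first overlap in their SDs, except the last pair. For Trav7d-2 and its identical copy Trav7-2, nearly all counts lay on 1 member in 34 of 35 libraries. For the identical pair Trav14d-1 and Trav14n-1 this was so in 12 of 35. The order of single segments thus depends in part on how counts were placed on copies.

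With copies joined, Trav14-3 led in all 12 naive libraries, at 8.44% to 9.83%. Trav14-1 followed at 7.19% ± 1.04, Trav14-2 at 6.09% ± 0.26, Trav7-4 at 5.90% ± 0.38, Trav7-2 at 5.06% ± 0.42 and Trav3-3 at 4.07% ± 0.22 (SD, n = 12). The Trav14 family as a whole held 20.6% to 24.8% and led every naive library. Of the 58 copy groups, 49 reached 3 counts in every naive library and 27 held at least 1% in every one. Pseudogenes held 0.655% to 1.03%.

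The naive profile differed little between libraries, whatever their line or genotype. The shared part of 2 copy group profiles, the sum over groups of the smaller of their shares, was 94.7% to 96.8% for the 12 pairs within a group. For the 54 pairs from different groups it was 93.3% to 97.1%. Over the 27 copy groups with a mean naive share of at least 1%, the coefficient of variation across the 12 naive libraries had a median of 6.65%, from 3.67% to 14.4%.

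Grafted cells used fewer segments, and unevenly so. Diversity was measured as the effective number of segments, the exponential of the Shannon entropy of the shares, which equals the number of segments when all are used equally. It was 71.0 ± 2.66 in naive cells (SD, n = 12) and 46.8 ± 14.6 in Tconv (SD, n = 12). The difference averaged over the 4 combinations of line and genotype was -24.3 (two-sided exact permutation test within these combinations, p = 2.5e-05, adjusted p = 0.0001 over 12 tests). Of the 23 grafted libraries, 22 lay below the lowest naive library, both by segments and by copy groups. The exception by segments was the first Tconv library of the HP1g WT, and by copy groups the third of the HP1a KO. With only identical copies joined, these libraries had 55.5 and 54.9 effective segments, and naive libraries 60.1 to 64.1.

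The spread among Tconv libraries of a group was wide. Naive libraries ranged from 65.6 to 76.2 effective segments. The 3 Tconv libraries of the HP1a WT had 43.6, 60.04 and 21.0, and those of the HP1a KO had 22.2, 53.9 and 59.0. Each of these groups thus holds 1 library far less diverse than its other 2.

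In the HP1g line, Tconv had 66.1, 53.0 and 32.4 effective segments in the WT and 54.6, 48.3 and 47.1 in the KO. The HP1g KO libraries were the closest to each other among the Tconv groups. By copy groups, naive libraries had 31.5 to 33.9 effective groups and grafted libraries 7.63 to 33.3.

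**Figure D1:**
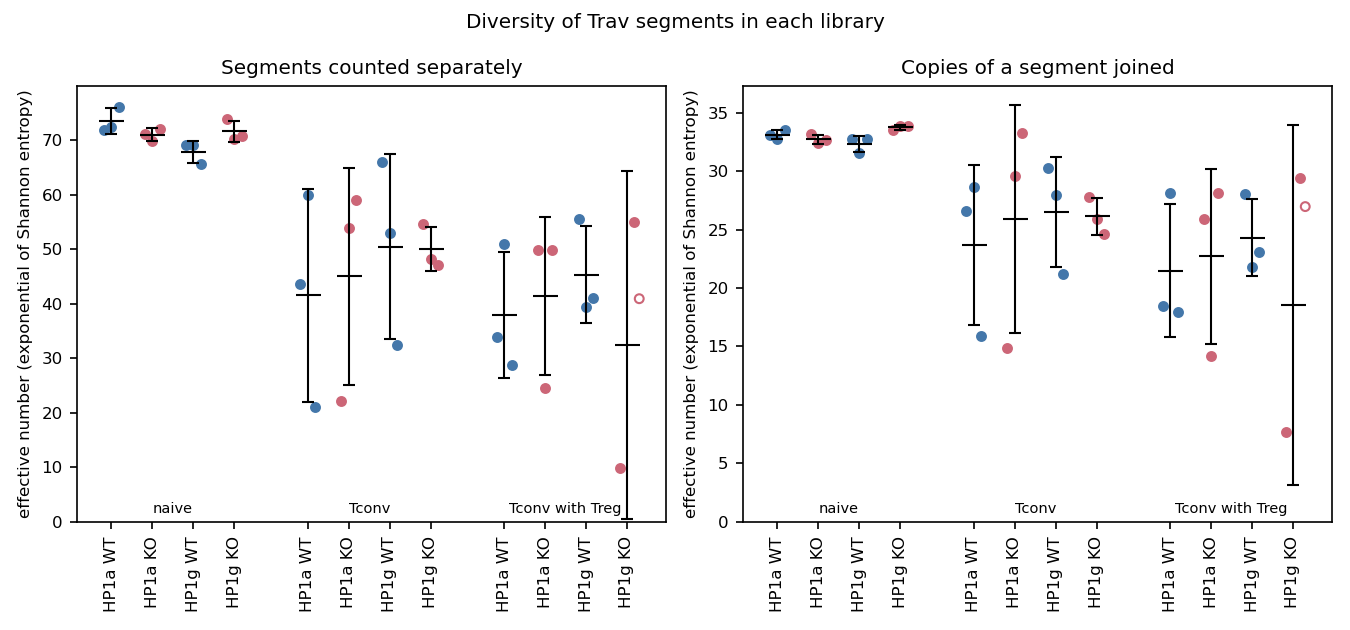
Effective number of Trav segments and of copy groups (vertical axes, number from 0, exponential of the Shannon entropy) for each library of the 12 groups on the horizontal axis; each point is a library, bars are the mean ± SD, and the open point is the library left out. Naive libraries sit at 65.6 to 76.2 effective segments, and 22 of 23 grafted libraries lie below all of them.

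At the level of whole families, the numbers in symbols such as Trav14, the loss was not detected. Naive libraries had 11.1 to 11.98 effective families and grafted libraries 4.58 to 12.8, and Tconv differed from naive cells by -0.77 families (exact permutation test, adjusted p = 0.3225). The fall in diversity thus passed the test for segments, and for families it did not.

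In 7 of 23 grafted libraries a single copy group held over 20% of the Trav signal, against 0 of 12 naive libraries. The largest was the first TconvTreg library of the HP1g KO, in which Trav7-4 held 59.3%. It had 20252 of 32010 Trav counts there, or 63.3% (95% Wilson interval 62.7% to 63.8%, which covers counting error only, as do all intervals given here). Nearly all of these counts were placed on the classical copy, with 20043 on Trav7-4, 167 on Trav7d-4 and 41.7 on Trav7n-4. This library had 9.87 effective segments, the fewest of all.

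The remaining 6 were each led by a segment printed above. In the first Tconv library of the HP1a KO, the copy group Trav14-3 held 39.7%, of which 38.0% was placed on Trav14d-3-dv8. In the second TconvTreg library of the HP1a KO, Trav7-2 and its identical copy Trav7d-2 held 33.5%. Estimated counts there were 3178 on Trav7-2 and 1176 on Trav7d-2, whereas Trav7-2 was listed at 0 in the other libraries in use. As the sequences are the same, this split carries no information on which copy was transcribed.

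In the third Tconv library of the HP1a WT, Trav19 held 28.6% and Trav5-4 18.9%. Trav19 has no copies, and it held 0.696% to 1.09% in naive libraries and 0.154% to 1.34% in the other grafted libraries. The first TconvTreg library of the HP1a WT was led by Trav14-3 at 26.2%, split as 14.3% on Trav14d-3-dv8, 8.96% on Trav14n-3 and 2.90% on Trav14-3 itself. The last of these shares its leading copy group with the first Tconv library of the HP1a KO, with a different split among copies.

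The third TconvTreg library of the HP1a WT was led by Trav4-4, at 24.6%, nearly all of it on Trav4-4-dv10 at 23.9%. The third Tconv library of the HP1g WT was led by Trav7-3, at 23.7%, of which 23.3% lay on Trav7-3 itself. Dominated libraries occurred in both lines, both genotypes and with or without Treg cells. Trbv19 held 47.1% of the Trbv counts in the dominated library led by Trav7-2, the lowest value among grafted libraries. It held 61.3% and 65.1%, the next lowest, in those led by Trav14-3 (HP1a WT and HP1a KO). In that led by Trav4-4 it held 67.8%. In those led by Trav7-4, Trav7-3 and Trav19 it held 83.2%, 84.5% and 91.7%, the last being the highest grafted value. Whether the leading segments belonged to Vβ6 cells was not tested.

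The other 16 grafted libraries were led by a copy group at 7.25% to 17.1%. Among Tconv of the HP1a WT these were Trav10 at 9.86% and Trav6-6 at 9.36%, and among those of the HP1a KO Trav6-6 at 10.1% and Trav7-4 at 8.80%. In the HP1g line, Tconv were led by Trav7-4 at 7.25% and Trav4-3 at 10.4% in the WT, and by Trav4-4 at 11.96%, Trav9-1 at 11.2% and Trav7-2 at 14.5% in the KO. No copy group led all the Tconv libraries of a group.

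With Treg cells, the second HP1a WT library was led by Trav14-2 at 12.8%, and the HP1a KO libraries by Trav4-4 at 17.1% and Trav14-3 at 10.2%. The HP1g WT libraries were led by Trav5-4 at 9.13%, Trav6-1 at 14.9% and Trav14-3 at 11.2%, and the second HP1g KO library by Trav10 at 9.37%. In all, 13 copy groups and 16 segments led a grafted library, and in every group each library had a leading copy group of its own.

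**Figure D2:**
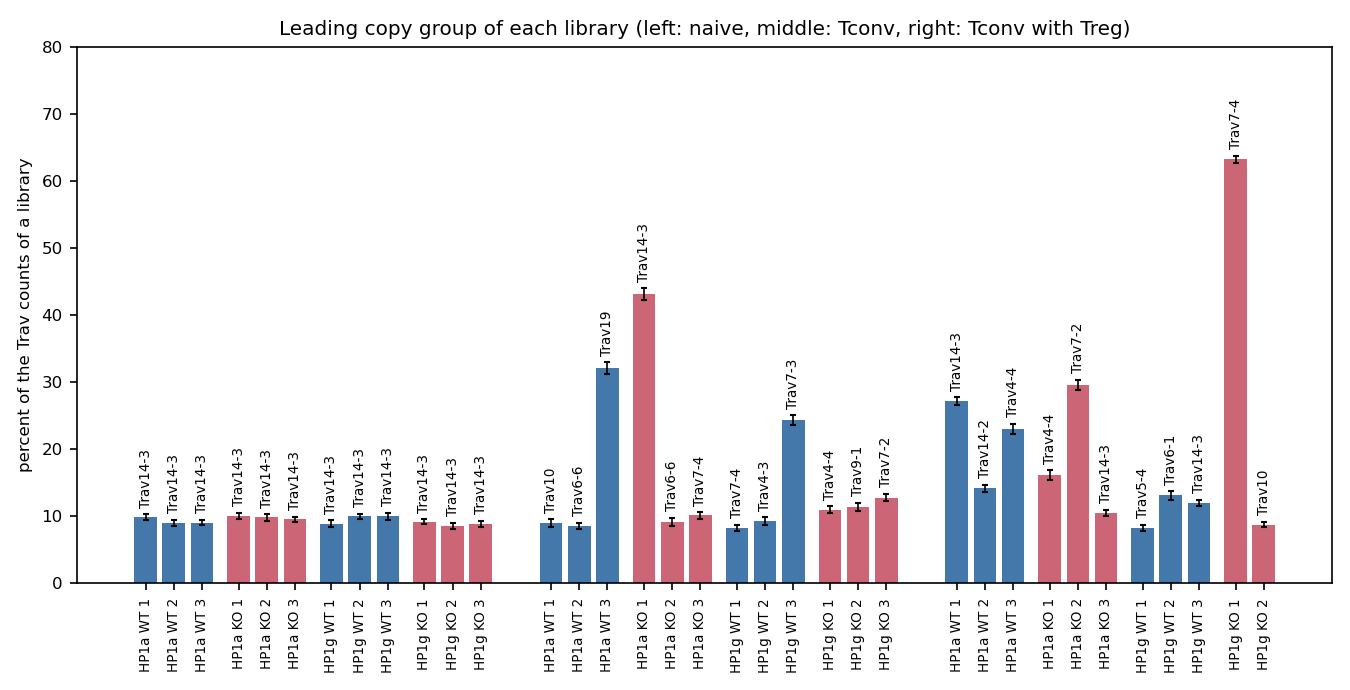
Percent of the Trav counts of a library (vertical axis, from 0) that fell on its leading copy group, named above each bar, for the libraries on the horizontal axis, naive at left, Tconv in the middle and TconvTreg at right; error bars are 95% Wilson intervals for counting error. Trav14-3 led every naive library, and leaders differed among the libraries of each grafted group, up to 63.3% for Trav7-4.

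The share of the leading segment was 5.06% ± 0.42 in naive cells and 13.6% ± 10.6 in Tconv (SD, n = 12 each). The difference averaged over lines and genotypes was 8.53 percentage points (two-sided exact permutation test, p = 1.25e-05, the smallest it can give, adjusted p = 7.5e-05 over 12 tests). By families the leading share rose by 1.64 points and did not pass (adjusted p = 0.7533). By copy groups the leader held 8.44% to 9.83% in naive libraries and 7.25% to 39.7% in Tconv. These ranges overlap, so not every Tconv library had a larger leader than naive cells at that level.

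Grafted libraries also differed from each other in the rest of their profile. The shared part of 2 copy group profiles was 43.8% to 72.9% with a median of 61.3% for the 22 pairs within a grafted group, and 36.8% to 78.4% with a median of 59.6% for the 231 pairs from different groups. The ranges overlap; the difference was not tested. Over the 27 common copy groups the coefficient of variation rose to a median of 74.1%, from 29.4% to 164%.

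**Figure D3:**
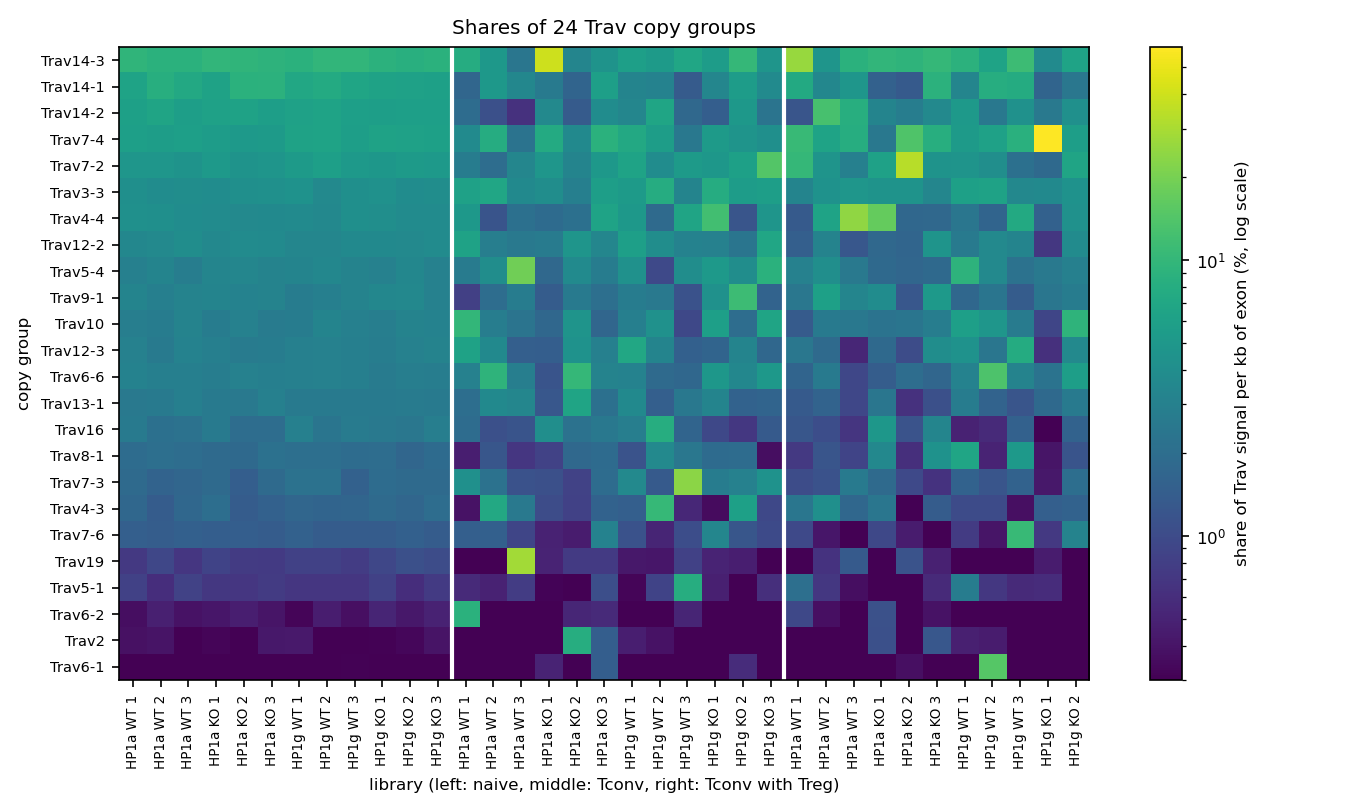
Share of the Trav signal per kilobase of exon (colour, percent on a log scale, shares under 0.3% drawn in the darkest colour) for 24 copy groups (vertical axis) in each library (horizontal axis, naive at left, Tconv in the middle, TconvTreg at right). Rows are even across the naive libraries, whereas in grafted libraries single bright cells mark the dominating groups, such as Trav7-4 at 59.3% and Trav14-3 at 39.7%.

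The segments with the highest mean share in grafted cells were largely those of naive cells, but their means rest on few libraries. Trav7-4 had 6.45% ± 11.6 (SD, n = 23), from 1.38% to 58.7%. Trav7d-2 had 5.19% ± 2.90 and Trav14d-3-dv8 4.16% ± 8.01. For Trav7-4 and Trav14d-3-dv8 the SD exceeds the mean.

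Next were Trav14n-3 at 3.61% ± 2.27, Trav4-4-dv10 at 2.73% ± 5.17 and Trav9-1 at 2.58% ± 2.11. Of the 58 copy groups, 37 reached 3 counts in every grafted library, and 6 held at least 1% in every one, namely Trav14-1, Trav14-3, Trav3-3, Trav4-4, Trav7-2 and Trav7-4. Pseudogenes held 0.0974% to 2.05% in grafted libraries.

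Position along the locus was summarized as the mean distance of the Trav signal upstream of Trac. It was 913 to 956 kb in naive libraries and 698 to 1063 kb in grafted libraries. The means were 929.5 ± 11.6 kb (SD, n = 12) and 936 ± 84.6 kb (SD, n = 23), so the signal spread between libraries in grafted cells while its average position stayed within the SD; the difference was not tested.

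**Figure D4:**
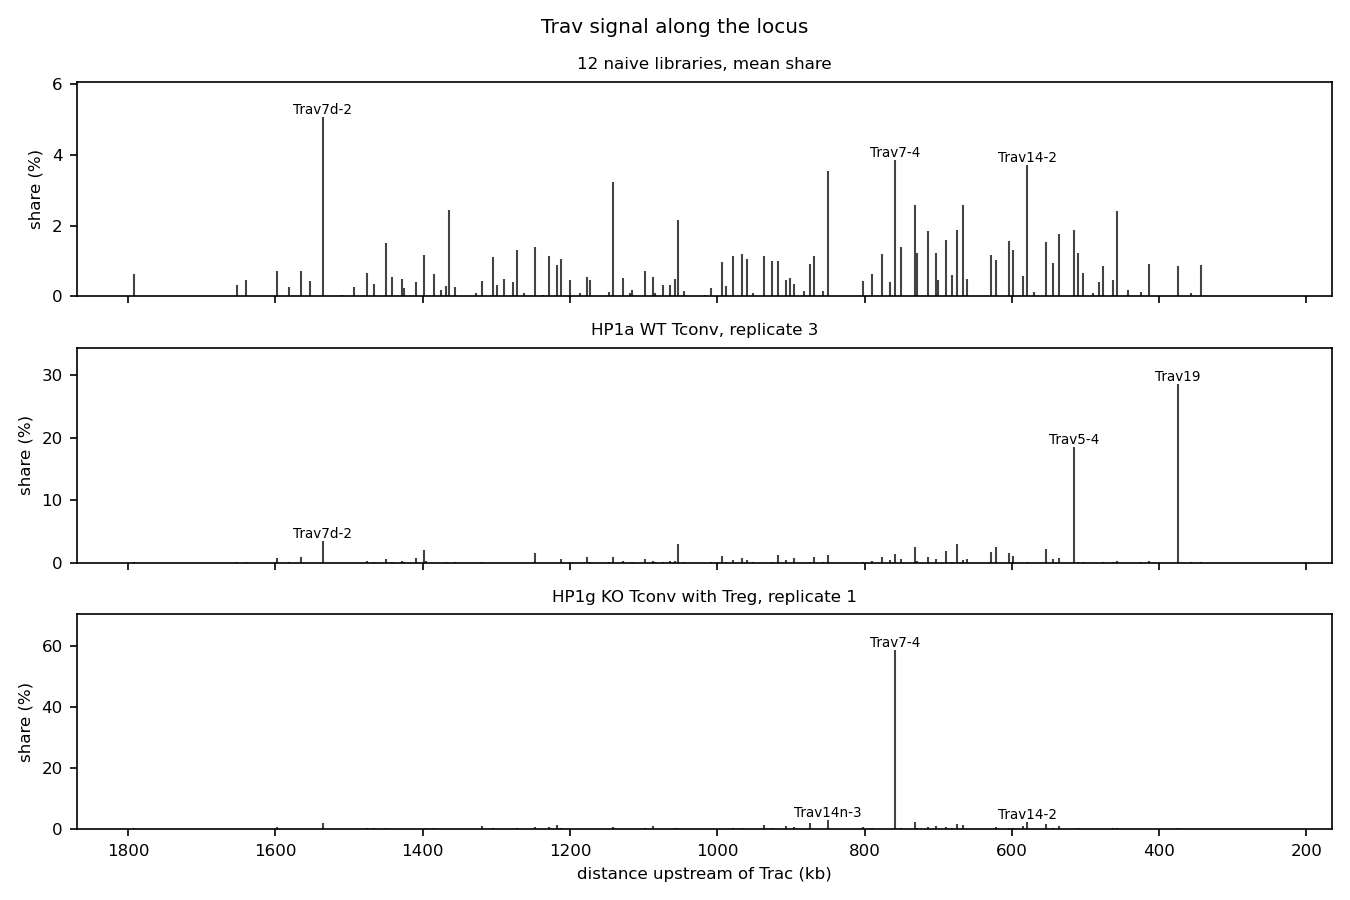
Share of the Trav signal (vertical axes, percent, from 0) of each segment against its distance upstream of Trac in kb (horizontal axis, closest at right), as the mean of the 12 naive libraries, in the third Tconv library of the HP1a WT and in the first TconvTreg library of the HP1g KO; each line is a segment, and the vertical scales differ. Trav7d-2 is highest in naive cells at 5.06%, Trav19 in the second panel at 28.6% and Trav7-4 in the lowest at 58.7%.

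The summed level of all Trav segments fell in Tconv. On the log2 scale of CPM it was 8.57 ± 0.22 in naive cells and 8.05 ± 0.16 in Tconv (SD, n = 12 each), a mean difference of -0.52 (two-sided exact permutation test, p = 1.25e-05, adjusted p = 7.5e-05). The libraries of these conditions did not overlap, at 325 to 575 CPM and 216 to 322 CPM. In bulk RNA, fewer cells of a type and less receptor RNA per cell cannot be told apart.

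Trav per 100 Trac counts was 23.1 to 25.5 in naive cells and 21.4 to 25.9 in Tconv. Relative to Trac the difference in log2 level shrank to -0.09 (exact permutation test, adjusted p = 0.0161), so on average most of the fall was shared by the constant gene. For Trac itself the log2 fold change was -0.10, -0.42, -0.72 and -0.49 in the HP1a WT, HP1a KO, HP1g WT and HP1g KO, under the threshold of 1 on this scale. The summed Trav level differed by -0.22, -0.53, -0.74 and -0.59 in the same order. The HP1a WT thus departs from the average, with Trac at -0.10 beside -0.22.

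Single segments were tested with edgeR's quasi-likelihood test on the whole gene table, and a segment was called at a Benjamini-Hochberg adjusted p under 0.05 with a log2 fold change beyond 1 in either direction. In HP1a WT Tconv against naive cells, 36 of 102 tested Trav segments were called, 5 higher and 31 lower, where the background over all genes was 23.1%, with 12.9% higher and 10.2% lower. In the HP1a KO 27 of 97 were called, 1 higher and 26 lower (all genes 19.7%, 12.4% higher and 7.24% lower). In the HP1g WT 19 of 100 were called, 1 higher and 18 lower (all genes 23.5%, 15% higher and 8.55% lower). In the HP1g KO 33 of 106 were called, 1 higher and 32 lower (all genes 23.1%, 15.7% higher and 7.3% lower).

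Leaving out the third naive library of the HP1a KO gave 17 calls there, and leaving out the second naive library of the HP1g WT gave 12. Called Trav segments were thus mostly lower, in larger shares than the background of lower genes, while in the HP1g WT the share called in all was below that background. The median log2 fold change over the tested segments was -0.84, -0.88, -1.03 and -0.85 in the HP1a WT, HP1a KO, HP1g WT and HP1g KO, beside -0.04, -0.01, -0.03 and 0.02 over all genes tested. With copies joined before the fit, 20 of 49, 12 of 48, 14 of 48 and 20 of 49 copy groups were called (all features 23.1%, 19.7%, 23.7% and 23.1%). Of these, 1 was higher, Trav7-1 in the HP1a WT.

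Trav14-1 and Trav14-2 were the copy groups lower in Tconv than in naive cells in all 4 combinations of line and genotype. This choice was made with their values in view. Trav14-2 was at 21.2 to 39.7 CPM in naive libraries and 2.29 to 15.8 CPM in Tconv, and Trav14-1 at 22.5 to 45.7 and 3.82 to 16.7 CPM, with no overlap for either. For Trav14-2 the log2 fold change was -2.59 ± 0.30 (SE) in the HP1a WT, -1.51 ± 0.41 in the HP1a KO, -1.53 ± 0.40 in the HP1g WT and -1.50 ± 0.47 in the HP1g KO (edgeR adjusted p = 0.000214, 0.025, 0.0203 and 0.0428).

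For Trav14-1 it was -1.30, -1.77, -2.29 and -1.08 in the same order. The HP1a WT call for Trav14-2 and the HP1g WT call for Trav14-1 held when any 1 of the 6 libraries was left out. Elsewhere some such fits lost the call, with the sign kept. For Trav14-1 these were the fits without the second or the third naive or the first Tconv library in both the HP1a WT and the HP1a KO (edgeR adjusted p up to 0.0736, or a log2 fold change of -0.94), and without the first or the third Tconv library in the HP1g KO (-0.92 and -0.99). For Trav14-2 they were those without any of the naive libraries in the HP1a KO (adjusted p up to 0.0704) and HP1g KO (up to 0.0953), without the third Tconv library of the HP1g KO (0.145), and without the second naive or the first or the third Tconv library in the HP1g WT (up to 0.065). In TconvTreg of the HP1a WT Trav14-2 was at 5.29, 51.7 and 30.5 CPM, so that group holds libraries above and below the naive range.

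Trav12-1, Trav15-1, Trav17, Trav3-1 and Trav9-4 were lower in 3 of the 4 combinations and not called in the other. In that other combination the log2 fold change was -0.71 for Trav12-1 and -0.95 for Trav9-4, both in the HP1a KO, -0.86 for Trav3-1 in the HP1g WT and -0.42 for Trav17 in the HP1g KO. For Trav15-1 it was positive, at 1.35 ± 0.54 in the HP1a WT (edgeR adjusted p = 0.0712). Single libraries decided many of these calls. Leaving out 1 of 6 libraries ended the call for Trav17 in the HP1a KO in 5 fits (all but that without the third Tconv library, adjusted p up to 0.127). It ended that for Trav3-1 in 4 fits each in the HP1a WT (without the second or the third naive or the first or the third Tconv library, up to 0.131) and the HP1g KO (without any naive or the third Tconv library, up to 0.118). For Trav12-1 in the HP1g KO 4 fits lost it, those without any naive library (up to 0.105) or the second Tconv library (-0.82). For Trav9-4 these were 3 in the HP1g WT (without the second naive or the second or the third Tconv library, up to 0.0729) and 2 in the HP1g KO (without the second naive or the third Tconv library, -0.98 and -0.93). Calls were also gained, by Trav15-1 as higher in the HP1a WT without the third Tconv library (1.79, adjusted p = 0.00462), by Trav3-1 as lower in the HP1g WT without the first Tconv library (-1.92, adjusted p = 0.0192), and by Trav9-4 as lower in the HP1a KO without the first or the second Tconv library (-1.05 and -1.03). For Trav17, leaving out the second Tconv library of the HP1g KO turned -0.42 to 0.12, neither of them called.

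Among single segments the largest fitted changes were those listed at 0 in every library of a group. In HP1a WT Tconv these included Trav14d-2 and Trav12d-3, at 219.97 to 341.4 and 88.98 to 218.4 counts in naive libraries, each of which has an identical copy that kept counts. The only higher segment in the HP1g WT was Trav7d-6, and in the HP1g KO Trav11d, both listed at 0 in naive cells of the group. Their identical copies Trav7n-6 and Trav11 were listed at 0 in Tconv and counted among the lower calls. Segments that were lower without being listed at 0 included Trav16d-dv11, at -3.91 ± 0.53 on the log2 scale, and Trav8d-2, at -3.33 ± 0.37, both in the HP1g KO (edgeR adjusted p = 0.000548 and 0.000179). Of the few higher segments, Trav3-3 rose by 1.16 ± 0.28 and Trav6d-6 by 1.19 ± 0.28 in the HP1a WT (edgeR adjusted p = 0.00902 and 0.00939). Without the second Tconv library both fell under the fold threshold (0.92 and 0.98), as did Trav6d-6 without the second naive library (0.99). Trav6d-6 has no base that differs from its copy Trav6-6, and in the fit to all libraries of the line it was not called (adjusted p = 0.0787).

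Of 18 listed genes of the receptor, its coreceptors and its assembly, 14 or 15 were tested in each combination. Cd8b1, a chain of the CD8 coreceptor, and Dntt, which adds untemplated bases at the joins in developing lymphocytes, were lower in Tconv in all 4. Trdc, the constant gene of the delta chain, whose locus lies within that of the alpha chain, was lower in the HP1a WT, HP1a KO and HP1g WT and not called in the HP1g KO, at -2.12. The summed level of the γδ T cell marker list, which holds Trdc and of which 4 of 7 genes were in the table, was nevertheless higher, at 10.2 to 19.3 CPM in naive cells and 24.8 to 116 CPM in Tconv, without overlap. Cd8a was higher in the HP1a KO.

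Their called counts were 3 of 14, 4 of 15, 3 of 15 and 2 of 15 in the HP1a WT, HP1a KO, HP1g WT and HP1g KO, near the shares over all genes of 23.1%, 19.7%, 23.5% and 23.1% except in the HP1g KO, where the count was lower. Dntt was at 11.4 to 14.7 CPM in the naive group means and 0.0192 to 0.147 CPM in those of Tconv. For Cd8b1 the log2 fold change ranged from -2.37 to -1.80 and for Trdc, where called, from -3.81 to -2.03. The genes of the CD3 complex, Cd4, Lck and Zap70 were not called in any combination; some passed the adjusted p but not the fold threshold, such as Zap70 at 0.56 on the log2 scale in the HP1a WT.

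Segments of unconventional T cells were a small part of the signal. Trav11 is the segment of invariant natural killer T cells and Trav1 that of mucosal-associated invariant T cells. The copy group Trav11 held 0.334% to 0.707% of the signal in naive and 0.0895% to 4.05% in grafted libraries, and Trav1 0.424% to 0.823% and 0.0154% to 1.99%. Summed markers of natural killer T cells were at 0.0231 to 0.318 CPM in naive and 1.60 to 21.9 CPM in grafted libraries, and their part in these shares was not tested.

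In Tconv against naive cells the copy group Trav11 was called in the HP1g KO, at -1.55 ± 0.49 on the log2 scale (edgeR adjusted p = 0.0342), and leaving out any naive library or the third Tconv library ended this call (adjusted p = 0.0761 to 0.0946). In the HP1a WT, HP1a KO and HP1g WT it was at 0.36, 0.81 and -1.07 without a call. Without the third naive library of the HP1a KO it was called there, in the opposite direction (1.12, edgeR adjusted p = 0.0459). Trav1 was lower in the HP1a KO, at -1.13 ± 0.36, and in the HP1g KO, at -2.55 ± 0.51 (edgeR adjusted p = 0.0408 and 0.00425). The HP1a KO call was lost without the second or the third naive or the first or second Tconv library (adjusted p = 0.0891 to 0.126), and the HP1g KO call held in 6 of 6 such fits. In the HP1a WT Trav1 was at -1.40 and was called without the second Tconv library (-2.57, edgeR adjusted p = 0.00156).

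Transfer together with Treg cells was compared with Tconv alone, within line and genotype. TconvTreg had 34.0, 50.9 and 28.7 effective segments in the HP1a WT and 49.9, 24.6 and 49.8 in the HP1a KO. In the HP1g line they had 55.6, 39.3 and 41.1 in the WT and 9.87 and 55.0 in the KO. These overlap the Tconv libraries in every combination but the HP1g KO, where 9.87 lies below and 55.0 above all 3.

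The mean difference from Tconv was -7.51 effective segments (two-sided exact permutation test, p = 0.274, adjusted p = 0.469) and 4.30 percentage points in the leading share (p = 0.569, adjusted p = 0.758). Without the first TconvTreg library of the HP1g KO, the leading share differed by -2.21 points. Neither difference was larger than the spread between libraries. The summed Trav level was higher with Treg, at 8.37 ± 0.36 (SD, n = 11) against 8.05 ± 0.16 on the log2 scale, a mean difference of 0.35 (p = 0.0017, adjusted p = 0.0051), and with the replicate number as a block this call was lost (exact permutation test, adjusted p = 0.0527). Relative to Trac this difference was -0.01 (adjusted p = 0.862).

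Trav per 100 Trac counts ranged from 17.8 to 30.2 in TconvTreg. Summed Treg markers were at 46.3 to 114 CPM in Tconv and 47.6 to 358 CPM in TconvTreg, and summed myeloid markers at 6.67 to 301 and 22.2 to 491 CPM. Summed NK cell markers were at 9.72 to 69.5 and 12.3 to 271 CPM, and in the HP1a WT at 16.7 to 19.2 and 103 to 271 CPM, without overlap. In each of these HP1a WT TconvTreg libraries, 2 of the 3 listed genes (Ncr1, Klrb1c and Eomes) were detected. Klrb1c is also in the natural killer T cell list, whose sum there was 5.68 to 21.9 CPM. The NK sum thus rests mostly on genes other than Klrb1c. The part of these marker levels in the summed Trav level was not tested.

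In the HP1a WT, 6 of 86 Trav segments were called in TconvTreg against Tconv, where 5.96% of all genes were called (3.54% higher and 2.43% lower). The count was near that share. Higher were Trav12-1, Trav14d-2, Trav14n-3, Trav6n-7 and Trav7-4, and lower was Trav7-1. Trav7-4 was at 8.29, 7.11 and 5.32 CPM in Tconv and 47.0, 22.4 and 21.5 CPM with Treg, and Trav14n-3 at 3.35, 6.90 and 3.45 against 34.0, 8.90 and 22.6 CPM. The groups did not overlap for either, at a log2 fold change of 2.17 ± 0.36 and 2.29 ± 0.53 (SE, edgeR adjusted p = 0.0139 and 0.0422). Leaving out any of the 3 Tconv libraries ended both calls (adjusted p = 0.0652 to 0.0858 and 0.0781 to 0.196), as did leaving out the first TconvTreg library for Trav14n-3 (0.11). With copies joined, the copy groups that hold these segments, Trav7-4 and Trav14-3, were not called.

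Trav12-1 was at 0.18, 0.36 and 0.12 CPM in these Tconv libraries and 0.92, 1.60 and 2.41 CPM with Treg, and its call was lost in 5 of 6 fits that left out 1 library (adjusted p up to 0.197). Trav6n-7 was at 0 counts in the 3 Tconv libraries and 343, 150.5 and 117 with Treg. Trav14d-2 was at 0 counts and 115, 753 and 363. Both have identical copies with counts in the same Tconv libraries, namely Trav6d-7 at 109, 173 and 70.7 and Trav14n-2 at 77.0, 41.6 and 64.5. Joined, Trav6-7 differed by 1.60 and Trav14-2 by 3.03 on the log2 scale, neither of them called (edgeR adjusted p = 0.0966 and 0.0563). The count of segments called fell to 3 without the first or the second Tconv library and 2 without the third, and rose to 11 without the third TconvTreg library.

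With copies joined, 1 of 46 copy groups was called, Trav7-1 (all features 6%). It was at 5.94, 5.18 and 2.32 CPM in Tconv and 0.71, 0.78 and 0.62 CPM with Treg, a log2 fold change of -2.62 ± 0.47 (edgeR adjusted p = 0.0168). The 2 groups did not overlap. Leaving out 1 library ended the call in 3 of 6 fits, those without the first or second Tconv library or the first TconvTreg library, at adjusted p = 0.0987, 0.0868 and 0.0603.

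In the HP1g WT 1 of 89 segments was called, Trav6d-7 (all genes 0.0126%, with 0.00629% in each direction), and with copies joined none of 46 (all features 0.00631%). In the HP1a KO 0 of 88 (all genes 0.44%, 0.18% higher and 0.26% lower) and in the HP1g KO 0 of 100 (all genes 0%) were called by edgeR, with 7 and 10 at an unadjusted p under 0.05, whereas DESeq2 called 3 and 2. Among all genes, 2551 of 16133 in the HP1a KO and 1294 of 16991 in the HP1g KO had an unadjusted p under 0.05. Without the second TconvTreg library of the HP1g KO, edgeR called 3. With copies joined there were again 0 calls, of 47 copy groups in each (all features 0.447% and 0%), with 6 and 4 at an unadjusted p under 0.05. A call missed at 2 or 3 libraries a group does not show that a segment was unchanged.

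KO was compared with WT within each condition. For the effective number of segments the mean difference was 1.54 in the HP1a line (two-sided exact permutation test, p = 0.80, adjusted p = 0.82) and -3.22 in the HP1g line (p = 0.70, adjusted p = 0.82). The leading share differed by 0.99 points (adjusted p = 0.82) and 6.68 points (adjusted p = 0.725), and the summed level by -0.15 and 0.23 on the log2 scale (adjusted p = 0.3225 for both). In naive cells alone, the effective number was 71.6 ± 1.95 in the HP1g KO and 67.9 ± 2.04 in the WT (SD, n = 3 each), without overlap, though an exact test of 3 libraries against 3 cannot go below p = 0.1, and none was made. Over conditions, none of the 3 measures passed with all libraries. The summed level in the HP1g line passed without the second naive WT library, at 0.30 (exact permutation test, adjusted p = 0.0108). That library was at 575 CPM, beside 344 and 389 CPM in the other naive WT libraries. Without the first TconvTreg library of the HP1g KO the effective number in the HP1g line differed by 4.30 and the leading share by -1.998 points. The effects of grafting and of Treg were also compared between lines and between genotypes, and the lowest adjusted p of these 12 tests was 0.866.

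By segments, edgeR called none in naive cells, 0 of 106 in the HP1a line (all genes 0%) and 0 of 102 in the HP1g line (all genes 0.00669%). At an unadjusted p under 0.05 there were 3 and 2, and DESeq2 called 2 and 0. Among all genes, 291 of 15549 in the HP1a line and 863 of 14939 in the HP1g line had an unadjusted p under 0.05. With the replicate numbers as blocks, which were found to pair the libraries of the HP1a comparison, 2 were called, Trav12d-3 and Trav7n-5, both listed at 0 in the KO. Each has an identical copy that kept counts in the KO, Trav12n-3 at 217, 207 and 262 and Trav7d-5 at 124, 125 and 140. With copies joined, edgeR called 0 of 49 copy groups in naive cells of either line (all features 0% and 0.00672%), with 0 at an unadjusted p under 0.05 in both.

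In Tconv, edgeR called 4 of 86 segments in the HP1a line, where 0.103% of all genes were called, and with copies joined 0 of 47, with 10 at an unadjusted p under 0.05 (all features 0.0775%). By segments DESeq2 called 16, and the fit to all libraries of the line 1. Trav11, Trav15-2-dv6-2 and Trav6n-7 were higher in the KO (all genes higher 0.0773%) and Trav6d-7 was lower (all genes lower 0.0258%). In the HP1g line 0 of 89 were called (all genes 0.0437%, 0.0312% higher and 0.0125% lower), with 8 at an unadjusted p under 0.05 and 5 by DESeq2. In TconvTreg 0 of 94 were called in the HP1a line (all genes 0.123%, 0.0431% higher and 0.08% lower) and 0 of 98 in the HP1g line (all genes 0%), with 3 and 16 at an unadjusted p under 0.05 and 2 and 11 by DESeq2. Among all genes, copies not joined, 1324 of 15521 in HP1a Tconv and 1349 of 16015 in HP1g Tconv had an unadjusted p under 0.05. In TconvTreg these were 1975 of 16256 in the HP1a line and 2028 of 17177 in the HP1g line. Shares over all genes under DESeq2 are not given. Without the second TconvTreg library of the HP1g KO, edgeR called 4. With copies joined, edgeR called 0 of 45 copy groups in HP1g Tconv (all features 0.0438%), 0 of 47 in HP1a TconvTreg (0.148%) and 0 of 48 in HP1g TconvTreg (0.00584%), each with 5 at an unadjusted p under 0.05.

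Of the 4 calls in HP1a Tconv, 3 were on segments with an identical copy. Trav11 was at 0, 0 and 0 counts in the WT and 110, 112 and 146 in the KO. Its copy Trav11d was at 65, 198 and 20 in the WT and 0, 0 and 0 in the KO. The signal moved as a whole from 1 entry of the table to the other, and the joined copy group differed by 0.15 ± 0.53 on the log2 scale (edgeR adjusted p = 0.947).

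Trav6d-7 was at 109, 173 and 70.7 counts in the WT and at 0 in the KO, and its copy Trav6n-7 at 0 in the WT and at 138, 108 and 326 in the KO. The joined copy group Trav6-7 differed by 0.64 ± 0.30 (edgeR adjusted p = 0.594). The same pair gave the call in the HP1g WT, with Trav6d-7 at 134, 104 and 127 counts in Tconv and 0 with Treg, and Trav6n-7 at 119, 67.6 and 152 with Treg. There the copy group differed by -0.37 ± 0.42 (edgeR adjusted p = 0.911), and the call for Trav6d-7 was lost in all 6 fits that left out 1 library (adjusted p = 0.0739 to 0.666).

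The fourth, Trav15-2-dv6-2, was at 3, 3 and 1 counts in the WT and 79.4, 31.0 and 94.5 in the KO, with no overlap, and its copy group differed by 2.56 ± 0.43 (edgeR adjusted p = 0.187). Leaving out any of the 3 WT libraries, or the first or the third KO library, ended the call for the segment (adjusted p = 0.0886 to 0.340). The calls for Trav6d-7 and Trav6n-7 were lost without any of the WT libraries (up to 0.166), which left 2, 1 and 1 segments called without the first, second and the third WT library. The comparisons of HP1a KO with WT Tconv and of HP1a WT TconvTreg with Tconv share the 3 WT Tconv libraries, in which Trav6n-7 is at 0.

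Such shifts between copies were common. Of the 23 pairs of segments with no differing base, 20 had a leading member that changed between libraries. The remaining pairs reached 10 counts in no library and could not be assessed. For Trav11 and Trav11d all counts fell on 1 member in 34 of 34 libraries with at least 10 counts. Across the genotype and Treg comparisons 6 of 11 calls were on members of such pairs, against 15 of 115 in Tconv against naive cells. Of all 130 segments, 46 are members of such pairs. Whether either count departs from that share was not tested.

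**Figure D5:**
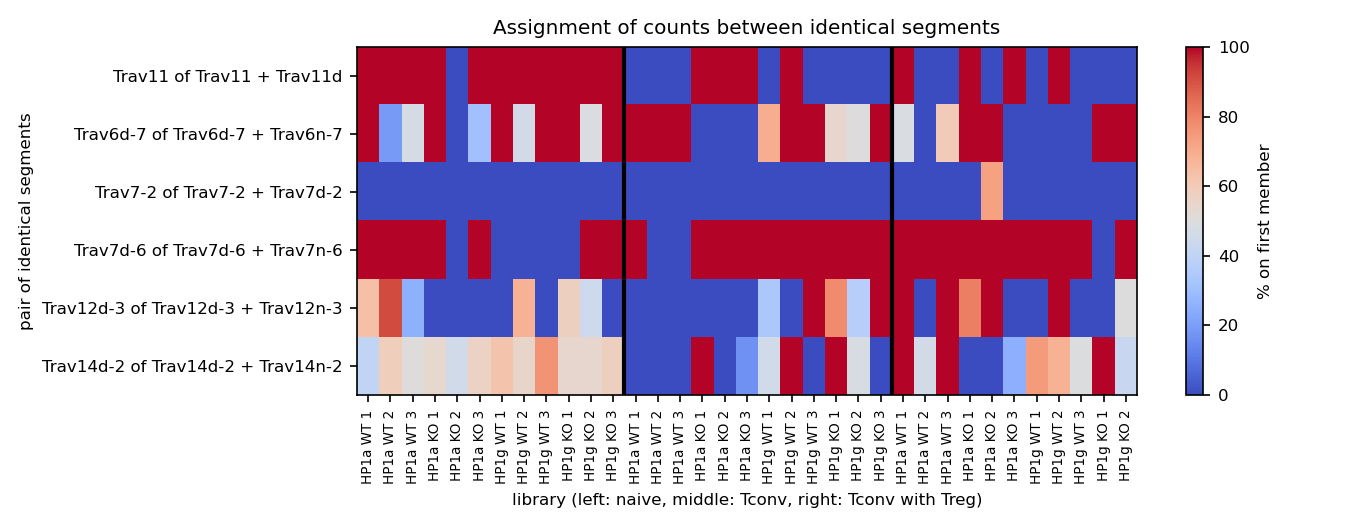
Percent of the counts of a pair of identical segments that was placed on its first member (colour) for 6 pairs (vertical axis) in each library (horizontal axis, naive at left, Tconv in the middle, TconvTreg at right). The colour changes between libraries in all of them, in a single library for Trav7-2, and for Trav11 and Trav11d every library with at least 10 counts is at an end.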

How the data were processed

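RNA libraries of CD4+ T cells were made with SMART-Seq v4 and sequenced paired-end. Per the labels and the methods of the study, the authors trimmed reads (Trim Galore), aligned them to GRCm39 (STAR) and estimated counts per gene with Salmon under Ensembl annotation, in the nf-core/rnaseq workflow. The deposited values are these estimated counts; 82.9% were whole numbers, and 35.6% of those of Trav segments were. Segment positions, exon lengths and sequences came from GENCODE M39 on the same assembly.

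The members and lists were chosen with earlier results of these data known. Estimated counts were rounded and fitted within each of 14 comparisons with edgeR 4.0.16 (TMM, filterByExpr, robust quasi-likelihood test, R 4.3.3), with adjusted p under 0.05 and a log2 fold change beyond 1 called. The fit was tested on simulated data. Shares are per kilobase of exon. CPM uses TMM factors over all libraries, or within a comparison for fitted values; 3 counts equal 0.0451 to 0.0819 CPM. Per-library measures were compared by exact permutation within line and genotype or condition (Python 3.11.15, scipy 1.17.1), adjusted over 12 tests.

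Segments were named by fixed rule: the 6 highest mean shares in naive and grafted cells, the leader of each library, up to 3 highest and 3 lowest called without overlap per comparison, segments at 0 in a whole group with at least 10 counts throughout the other, and Trav11, Trav11d and Trav1. Copy groups and other segments named were chosen with their values in view. Same-numbered libraries deviated together (correlations of 0.287 to 0.654 and 0.112 to 0.431 over 3 pairs) for HP1a KO against WT in naive cells and HP1g KO against WT in Tconv, and the numbers were taken to pair the libraries there. For HP1g KO against WT in TconvTreg the correlations were 0.197 and 0.38 over 2 pairs. At least 3 pairs were required, so these libraries were not taken as paired. Alternatives included DESeq2 1.42.0 (the authors' tool), no filter, all libraries of a line, the replicate block, leaving out each library, and, chosen after seeing the data, joined copies.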

Additional observations from a re-analysis of the deposited data

How the results depend on the processing

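Of the values recomputed under alternatives, 1020 kept their direction and side of the threshold or stayed close in count, 121 lost a call, 7 gained one, 13 changed sign and 47 counts moved by over 1.5 times; the cause was not tested. The differences between Tconv and naive cells kept their calls in all 24 fits that left out a library (effective number -26.6 to -21.4, leading share 6.01 to 9.84 points, summed level -0.56 to -0.47). By families they were -0.77 and 1.64 and did not pass. Relative to Trac, the summed level differed by -0.012 for Treg and 0.044 for HP1a KO, against the sign of the unscaled values. With the replicate block the Treg difference was 0.35 (adjusted p = 0.0527), HP1a KO against WT in naive cells had 2 calls and the HP1g WT with Treg 0; the block changed no other call of the diversity measures and moved no other count by over 1.5 times.

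Leaving out 1 library gave an effective number difference of -1.88 to 5.35 for HP1a KO, negative without the WT (-1.88) or the KO (-0.79) Tconv library of replicate 3, and -10.7 to 4.30 for HP1g KO. The leading share differed by -2.21 to 10.8 for Treg, by -1.998 to 15.4 for HP1g KO, and by -2.38 to 3.396 for HP1a KO, negative without the second WT Tconv (-0.53), first KO Tconv (-2.38), second WT TconvTreg (-0.47) or second KO TconvTreg (-0.76) library. The summed level for HP1g KO was 0.10 to 0.35, and passed without the second WT naive library (0.30, adjusted p = 0.0108). With copies joined, Trav11 was at 0.36 in the HP1a WT and -0.46 to 0.76 with 1 library left out, negative without the second Tconv library. Trav17 was at -0.42 in the HP1g KO and -1.92 to 0.12, positive without the second Tconv library. None of these was called.

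Segments called with 1 library left out were 1 to 4 for HP1a KO in Tconv, 0 to 4 for HP1g KO with Treg, 2 to 11, 0 to 1 and 0 to 3 for Treg in the HP1a WT, HP1g WT and HP1g KO, and 27 to 39, 17 to 36, 12 to 26 and 25 to 41 for Tconv against naive in the HP1a WT, HP1a KO, HP1g WT and HP1g KO. Receptor genes called were 3 to 5 in the HP1g WT (5 without the first naive or first Tconv library) and 2 to 4 in the HP1g KO (4 without the first Tconv library). DESeq2 called 2, 16 and 2 for HP1a KO in naive, Tconv and TconvTreg, 5 and 11 for HP1g KO in Tconv and TconvTreg, 14, 3, 2 and 2 for Treg in the HP1a WT, HP1a KO, HP1g WT and HP1g KO, and 29 for Tconv in the HP1g WT. Without the filter there were 2, 4 and 1 calls for HP1a KO in naive cells, HP1g KO with Treg and Treg in the HP1g KO. A fit to all libraries of a line gave 1 and 4 for HP1a KO in Tconv and TconvTreg, 2 for HP1g KO with Treg, 19 for Treg in the HP1a WT, and 21, 9 and 19 for Tconv in the HP1a WT, HP1a KO and HP1g KO. With copies joined, counts were 0 for HP1a KO in Tconv, 1 and 0 for Treg in the HP1a WT and HP1g WT, and 20, 12 and 20 for Tconv in the HP1a WT, HP1a KO and HP1g KO. For these alternatives other than joined copies, shares over all genes are not given, so their counts cannot be set against a background. Counts of 2 or 3 libraries and copies that share reads limit what single segments can show.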

Other observations

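The table also lists 60 joining segments (Traj), which the comparisons did not use. They held 32 to 114 counts per library, so their shares rest on few counts. The leading Traj segment held 7.14% to 12.3% of these counts in naive libraries and 8% to 42.2% in grafted libraries. In 6 grafted libraries it exceeded 20%, and all 6 were among the 7 in which a Trav copy group exceeded 20%. Traj42 led the second TconvTreg library of the HP1a KO, at 42.2% (95% Wilson interval 29.0% to 56.7%), the library led by Trav7-2. It also led the third Tconv library of the HP1a WT, led by Trav19, at 29.8% (19.5% to 42.7%). Traj12 held 29.5% (18.2% to 44.2%) of the first Tconv library of the HP1a KO, led by Trav14-3. In the HP1a WT, Traj22 led the first TconvTreg library at 23.3% (15.8% to 33.1%) and Traj40 the third at 24.2% (15.2% to 36.2%). The first TconvTreg library of the HP1g KO, led by Trav7-4 at 59.3%, had Traj15 at 21.9% (15.3% to 30.4%) and Traj23 at 20.2%. Among the 6, only the interval of the second HP1a KO TconvTreg library lay wholly above 20%. In the seventh library, the third Tconv library of the HP1g WT, the leading segment Traj22 held 13.1%. The highest share among the remaining grafted libraries was 17.9%. No test was made of this, and the libraries do not tell which Trav and Traj segments were joined in the same cells.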
